A study of Homo sapiens with 2 samples.

Results

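Interferon-stimulated genes, a set of 36 genes chosen by name, were examined in the human colorectal carcinoma line HCT116. All 36 had an identifier in the deposited table of 57820 genes. RNA was compared between 1 library from a CREB1 knockout clone and 1 library from CREB1 wild-type cells. CREB1 is the transcription factor that answers to cAMP. The knockout was made with a plasmid encoding nickase Cas9 and guide RNAs against CREB1. The knockout group is a lone clone, so a difference between clones cannot be told apart from the loss of CREB1. Cells of both genotypes were kept in DMEM, serum and antibiotics, and no interferon or other stimulus is given in the labels. Total RNA was depleted of ribosomal RNA and sequenced as stranded paired-end libraries.

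Cells that detect foreign nucleic acid secrete interferons. Type I interferons bind the receptor pair IFNAR1 and IFNAR2, whose kinases JAK1 and TYK2 phosphorylate STAT proteins. In the complex ISGF3, STAT2 is held to DNA by IRF9. ISGF3 binds the interferon-stimulated response element (ISRE) in promoters and turns on genes that block viral entry, translation and RNA stability. Many of these genes are also transcribed at a low level without added interferon.

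The ISRE is the sequence that the set is best known to share, and stretches that hold it are shown for members whose values are described below. They come from RefSeq promoter windows (GRCh38.p14) of 300 bases, 250 before and 50 after an annotated start, and run 5′ to 3′ on the strand of the gene. Capitals mark each match to the ISRE letters, searched as GAAA, any 2 bases and again GAAA, which on the opposite strand appear as TTTC, any 2 bases and TTTC. The first 4 belong to members that were higher in the knockout library.
IFIT3 (chr10:89327860-89327899, + strand): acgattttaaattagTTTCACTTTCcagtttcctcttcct
OAS3 (chr12:112938434-112938473, + strand): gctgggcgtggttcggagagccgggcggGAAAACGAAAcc
DTX3L (chr3:122564302-122564341, + strand): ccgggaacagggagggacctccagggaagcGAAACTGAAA
PARP14 (chr3:122680795-122680834, + strand): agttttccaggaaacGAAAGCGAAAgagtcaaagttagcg
The next 4 belong to members that were lower in the knockout library.
ISG15 (chr1:1013375-1013414, + strand): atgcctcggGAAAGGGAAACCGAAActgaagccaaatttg
ISG20 (chr15:88638932-88638971, + strand): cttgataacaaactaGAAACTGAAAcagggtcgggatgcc
IFI6 (chr1:27672261-27672300, - strand): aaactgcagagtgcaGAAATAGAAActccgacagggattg
IFIT5 (chr10:89414534-89414573, + strand): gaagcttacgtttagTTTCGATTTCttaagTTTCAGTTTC
The last 2 belong to members that lay within counting error of no difference.
IFIT1 (chr10:89392505-89392544, + strand): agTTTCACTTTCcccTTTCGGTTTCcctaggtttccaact
IFITM3 (chr11:320871-320910, - strand): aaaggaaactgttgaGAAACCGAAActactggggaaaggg

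Of the 36 members, 29 had at least 1 promoter window. IFIT2, IFITM2, OAS2, OASL, MX2, DHX58 and IRF7 had none. The ISRE letters were found on either strand in 20 of the 29 members (69.0%), whereas 4.38% of all 27305 genes with a window hold them. Several members carry more than 1 match. IFIT5, IFI6 and IFIH1 have 3 matches each in their windows. In ISG15 the 2 matches overlap, with first bases 113 and 107 bases before the start. Matches also overlap in BST2 (first bases 130 and 124 before the start) and in IFIH1 (159 and 153). The genes DTX3L and PARP9 share 1 match, at chr3:122564332-122564341, which runs across the DTX3L start. Counted along each gene, its first base lies 6 bases before the DTX3L start and 41 bases before a PARP9 start on the opposite strand. The cAMP response element that CREB1 binds, searched as TGACGTCA, was found in no member window, and 2.25% of all genes with a window hold it. A match is a description of letters and not of a bound site. Other forms of the cAMP response element were not searched, so its absence here does not show that members lack CREB1 sites.

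**Figure D1:**
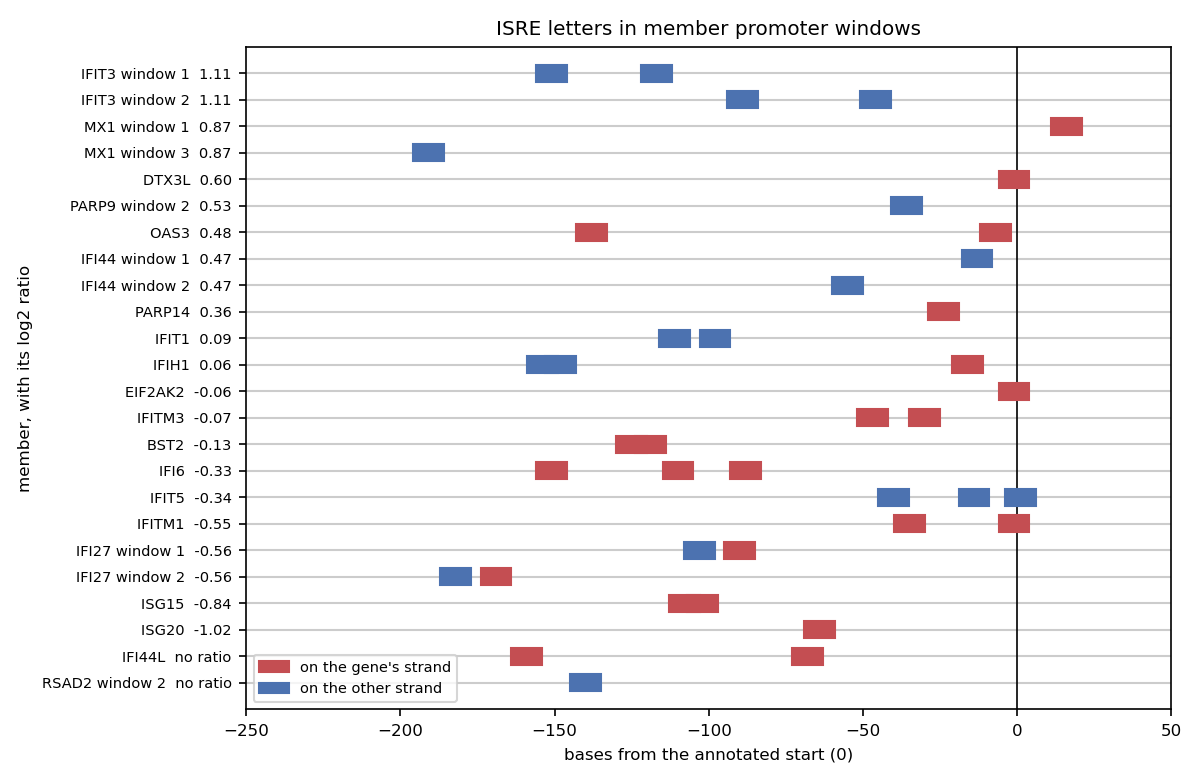
Positions of the ISRE letters in the promoter windows of members that hold them, in bases from the annotated start (0), with members ordered by log2 ratio, knockout over wild-type. Each box is 1 match of 10 bases, coloured by strand. Members with a log2 ratio above 0, such as IFIT3 (1.11), and below 0, such as ISG20 (-1.02), both carry matches.

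The deposited values are expected counts, which are estimates of the reads of each gene that need not be whole. They summed to 31178312 in the knockout library and 34511071 in the wild-type library. CREB1 itself had 499 counts in the knockout library and 614 in the wild-type library, so transcripts of the targeted gene remained, and a gene-level count does not check the genotype. Of 7 colorectal epithelial markers, 6 passed the filter for expression described below. VIL1 did not, with 9 counts in the knockout library and 12 in the wild-type library. Of the endothelial and fibroblast markers, COL1A1 alone passed it, with 89 counts in the knockout library and 83 in the wild-type library. Of 7 leukocyte markers, 3, including PTPRC and CD3E, were at 0 in both libraries, and the list summed to 28 counts in the knockout library and 17 in the wild-type library. The markers of plasmacytoid dendritic cells, which are the main interferon producers of blood, summed to 1 count in the knockout library and 0 in the wild-type library.

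Members split in direction between the libraries. Levels are given as CPM, which are counts scaled to the depth of each library by the TMM method, and a gene counted as expressed if its mean over the libraries reached 1 CPM. By that filter 25 members were expressed and 11 were not. A member was called higher or lower when it differed at least 2-fold and the 95% counting interval of its ratio excluded no difference. Called higher was 1 of the 25, IFIT3, and called lower were 2, OASL and ISG20. Over all 12886 expressed genes, 1.28% were called higher and 1.64% lower. By the interval alone, 10 members were higher and 7 lower, where 26.4% of expressed genes were higher and 25.5% lower. At a threshold of 1.5-fold, 5 members were called higher and 3 lower, where 5.25% of expressed genes were higher and 5.5% lower. The log2 ratio, knockout over wild-type, was above 0 in 15 of the 25 members, and in 51.2% of expressed genes. With total-count scaling it was above 0 in 17 members, and the share of all expressed genes was not computed under that scaling. The median log2 ratio was 0.07 over the 25 members and 0.01 over all expressed genes, and 17 of the 25 members lay within 1.5-fold. With 1 library per group there is no test, and all intervals cover counting error only.

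**Figure D2:**
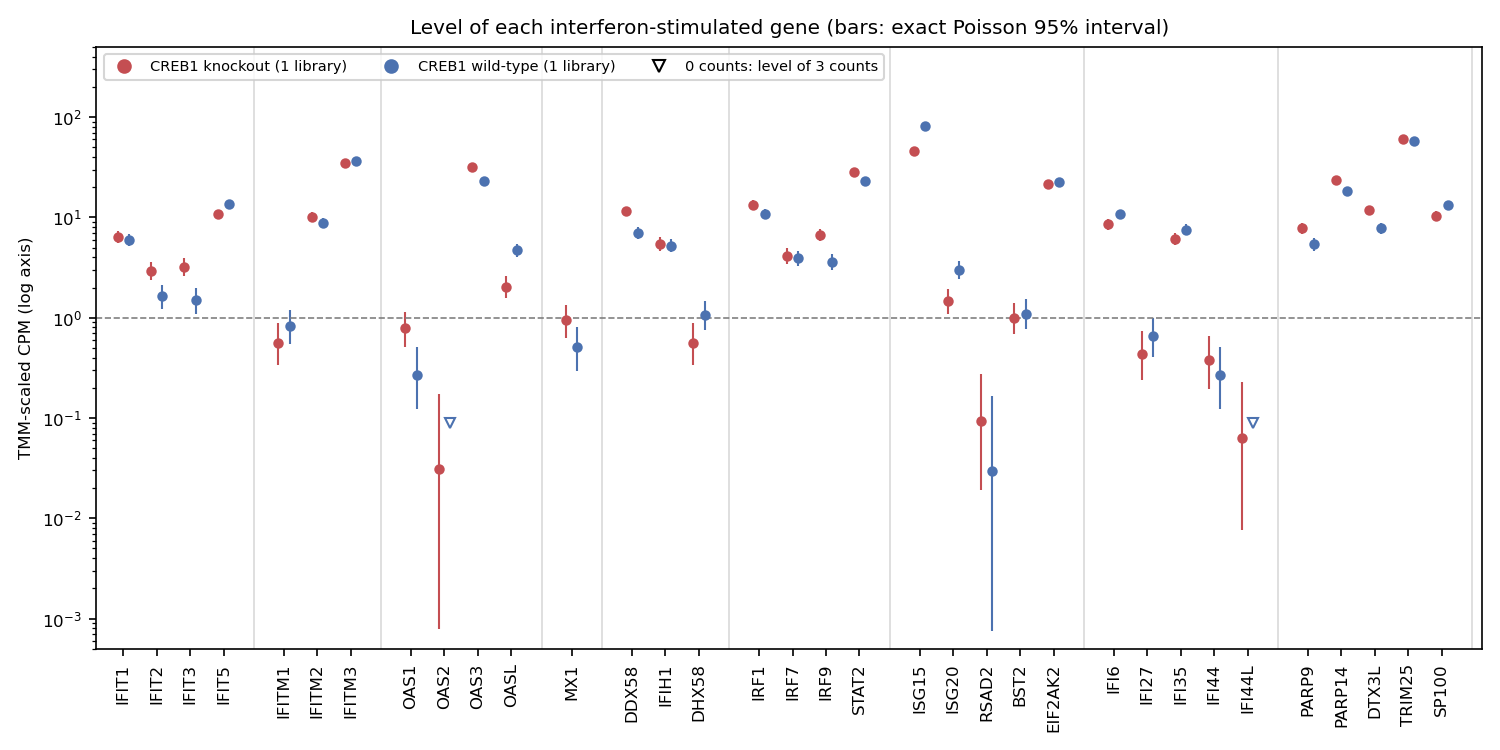
TMM-scaled CPM of each member in the knockout (red) and wild-type (blue) library on a log axis, grouped by role, with exact Poisson 95% intervals that cover counting error only. The dashed line marks 1 CPM, and triangles stand at the level of 3 counts, the most that a count of 0 allows. ISG15 is the highest wild-type point (81.8 CPM), and MX2 and XAF1, at 0 in both libraries, are not drawn.

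The 4 transcription factors among the members all had log2 ratios above 0, as had 51.2% of all expressed genes. STAT2, the ISGF3 subunit that carries the activation domain, had 912 counts (28.5 CPM) in the knockout library and 776 counts (23.1 CPM) in the wild-type library, a 1.24-fold difference (interval 1.12 to 1.36). IRF1, a factor that binds similar elements and is induced by interferon gamma, had 430 counts in the knockout library and 365 in the wild-type library (1.24-fold, interval 1.08 to 1.43). The ratio of IRF7, which drives the later wave of interferon genes, was within counting error of 1, with 132 counts in each library (4.13 CPM in the knockout and 3.92 CPM in the wild-type library).

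IRF9, the DNA-binding subunit of ISGF3, had the largest ratio among these factors. It had 213.92 expected counts in the knockout library and 121.22 in the wild-type library, a 1.86-fold difference (log2 ratio 0.89, interval 1.48 to 2.35 in fold). The gene AL136295.5 shares 1838 exon bases with IRF9 on the same strand in GENCODE 29, and it had 449.76 expected counts in the knockout library and 482.4 in the wild-type library. Summed with AL136295.5, the ratio was 1.16-fold (interval 1.03 to 1.29). The size of the IRF9 ratio thus depends on how shared reads are divided between these genes.

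Sensors of viral RNA differed among themselves. DDX58, which encodes RIG-I, the receptor for RNA with a free triphosphate end, had 370 counts (11.6 CPM) in the knockout library and 235 counts (6.98 CPM) in the wild-type library. That is a 1.66-fold difference with an interval of 1.4 to 1.96, and 3.07% of expressed genes had a log2 ratio at or above its value of 0.73. IFIH1, which encodes MDA5, the receptor for long double-stranded RNA, had 174 counts in the knockout library and 176 in the wild-type library (1.04-fold, interval 0.839 to 1.29). DHX58, which encodes LGP2, a family member without signalling domains, was under the expression filter, with 18 counts in the knockout library and 36 in the wild-type library. Its ratio was 1.9-fold lower with an interval of 1.05 to 3.56. The 3 receptors thus ranged from a log2 ratio of 0.73 to -0.91, and the intervals of DDX58 and DHX58 do not overlap.

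The IFIT genes, which lie side by side on chromosome 10 and encode proteins that bind viral RNA ends and block their translation, also spread in both directions. IFIT3, a partner that stabilises IFIT1, had 103 counts (3.22 CPM) in the knockout library and 50 counts (1.49 CPM) in the wild-type library. The difference was 2.17-fold (log2 ratio 1.11, interval 1.53 to 3.1 in fold), and 0.892% of expressed genes lay at or above it. IFIT2, the neighbouring gene, had 93 counts in the knockout library and 55 in the wild-type library, a 1.78-fold difference (interval 1.26 to 2.53). IFIT1, which recognises RNA without cap methylation, was even, with 204 counts in the knockout library and 201 in the wild-type library (1.07-fold, interval 0.875 to 1.3).

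IFIT5 went the other way. It had 342 counts (10.7 CPM) in the knockout library and 457 counts (13.6 CPM) in the wild-type library, 1.27-fold lower with an interval of 1.1 to 1.47. The intervals of IFIT3 and IFIT2 lie wholly above that of IFIT5. The summed level of the 4 genes was 23.2 CPM in the knockout library and 22.7 CPM in the wild-type library, so the sum hides the spread. The 20 nearest expressed protein-coding neighbours of the cluster, 10 on each side, had a median log2 ratio of 0.07, ranging from -0.63 to 0.84.

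The oligoadenylate synthetases, which make the messenger that activates RNase L, had members that differed in opposite directions. OASL, a relative without synthetase activity, had 65 counts (2.03 CPM) in the knockout library and 158 counts (4.7 CPM) in the wild-type library. It was 2.31-fold lower (log2 ratio -1.20, interval 1.72 to 3.13 in fold), the lowest ratio among the 25 expressed members. OAS3, an enzyme of the family, had 1021 counts (31.9 CPM) in the knockout library and 771 counts (22.9 CPM) in the wild-type library, a 1.39-fold difference (interval 1.27 to 1.53).

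The other OAS genes were under the expression filter. OAS1 had 25 counts (0.782 CPM) in the knockout library and 9 counts (0.267 CPM) in the wild-type library. Its ratio of 2.92-fold has an interval of 1.32 to 7.12 and meets the call rule apart from the expression filter. Without the CPM filter, among genes with at least 10 counts over both libraries, 2.46% were called higher and 3.35% lower. OAS2 had 1 count in the knockout library and 0 in the wild-type library, where a count of 0 allows up to 3 counts, or 0.0892 CPM. OAS1, OAS2, OAS3 and OASL all lie on chromosome 12, and of these OAS3 and OASL passed the filter.

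ISG15 had the largest difference in CPM among the members. It encodes a ubiquitin-like protein that is attached to other proteins during the interferon response. ISG15 had 1464 counts (45.8 CPM) in the knockout library and 2752 counts (81.8 CPM) in the wild-type library, 1.79-fold lower with an interval of 1.68 to 1.9. The ratio was under 2-fold, so the gene was not called, and the interval also lies wholly under 2-fold. Of expressed genes, 2.59% had a log2 ratio at or below the ISG15 value of -0.84. Of the ISG15 conjugation enzymes, listed as UBA7, UBE2L6, HERC5 and HERC6, the 3 expressed ones had log2 ratios between -0.20 and -0.01. UBA7, the activating enzyme, was under the filter, with 18 counts in the knockout library and 9 in the wild-type library (2.1-fold, interval 0.898 to 5.32). UBE2L6, the conjugating enzyme, had 388 counts in the knockout library and 469 in the wild-type library. HERC5, the main ligase, had 288 counts in the knockout library and 335 in the wild-type library.

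Other antiviral effectors were lower or even. ISG20, an RNA exonuclease, had 47 counts (1.47 CPM) in the knockout library and 101 counts (3 CPM) in the wild-type library. It was 2.04-fold lower (log2 ratio -1.02, interval 1.43 to 2.95 in fold), just past the threshold, and it was not called when total counts were used for scaling. EIF2AK2, which encodes the kinase PKR that halts translation, had 685 counts in the knockout library and 754 in the wild-type library (ratio 0.956, interval 0.861 to 1.06). BST2, or tetherin, which holds budding virions at the cell surface, was the member nearest above the expression filter (mean 1.05 CPM, and DHX58 nearest below it at 0.816), with 32 counts in the knockout library and 37 in the wild-type library. RSAD2, which encodes viperin, had 3 counts in the knockout library and 1 in the wild-type library, and no ratio was taken.

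The IFITM proteins, which sit in membranes and hinder fusion of enveloped viruses, all had intervals that include a ratio of 1, except IFITM2 with total-count scaling. IFITM3 had 1105.78 expected counts (34.6 CPM) in the knockout library and 1218.52 (36.2 CPM) in the wild-type library, a ratio of 0.955 (interval 0.879 to 1.04). IFITM2 had 326.24 in the knockout library and 294.15 in the wild-type library, a ratio of 1.17 (interval 0.994 to 1.37). IFITM1 was under the filter with 17.98 in the knockout library and 28.33 in the wild-type library. These genes are close copies and their fractional counts show shared reads, so the division among them is uncertain. Their sum was 1450 in the knockout library and 1541 in the wild-type library, a ratio of 0.99 (interval 0.921 to 1.06).

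PARP9, DTX3L and PARP14, neighbours on chromosome 3, were higher together in the knockout library. DTX3L, a ubiquitin ligase that works as a complex with PARP9, had 377 counts (11.8 CPM) in the knockout library and 261 counts (7.76 CPM) in the wild-type library (1.52-fold, interval 1.29 to 1.79). PARP9 had 249 counts in the knockout library and 181 in the wild-type library (1.45-fold, interval 1.19 to 1.76). PARP14, a mono-ADP-ribosyltransferase, had 756 counts in the knockout library and 621 in the wild-type library (1.28-fold, interval 1.15 to 1.43).

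No member of this trio reached 2-fold, and all 3 intervals exclude no difference. The median log2 ratio of the trio was 0.53, against 0.10 over the 20 nearest expressed protein-coding neighbours, 10 on each side, which ranged from -0.50 to 0.96. PARP9 and DTX3L overlap by 217 exon bases on opposite strands, and whether the counting used strand is not stated in these sources. Both genes had whole-number counts, and whether they share reads was not tested. The sum of both genes gave 1.49-fold (interval 1.32 to 1.69).

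Of the other members with a role in ubiquitin and nuclear bodies, TRIM25, the ligase that activates RIG-I, was even, with 1923 counts (60.1 CPM) in the knockout library and 1954 counts (58.1 CPM) in the wild-type library (1.04-fold, interval 0.972 to 1.1). SP100, a component of PML nuclear bodies, was 1.29-fold lower, with 332.04 expected counts in the knockout library and 452 in the wild-type library (interval 1.12 to 1.5). Direction therefore differed within this group as well.

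The IFI genes, many of them small interferon-induced proteins of uncertain function, had 2 expressed members here, both lower. IFI6, a mitochondrial and endoplasmic reticulum protein, had 272 counts in the knockout library and 361 in the wild-type library, 1.26-fold lower (interval 1.07 to 1.48). IFI35 had 196 counts in the knockout library and 253 in the wild-type library, 1.23-fold lower (interval 1.01 to 1.49, which includes 1 with total-count scaling). IFI27, IFI44 and MX1 were under the filter and their intervals included no difference. IFI27 had 14 counts in the knockout library and 22 in the wild-type library, IFI44 had 12 in the knockout and 9 in the wild-type library, and MX1 had 30 in the knockout and 17 in the wild-type library. MX1 encodes a dynamin-like GTPase that traps viral nucleocapsids, and it is among the members most strongly induced by interferon in many cells. IFI44L had 2 counts in the knockout library and 0 in the wild-type library. MX2, a relative of MX1, and XAF1, a proapoptotic protein, had 0 counts in both libraries, which allows up to 0.0938 CPM in the knockout and 0.0892 CPM in the wild-type library.

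**Figure D3:**
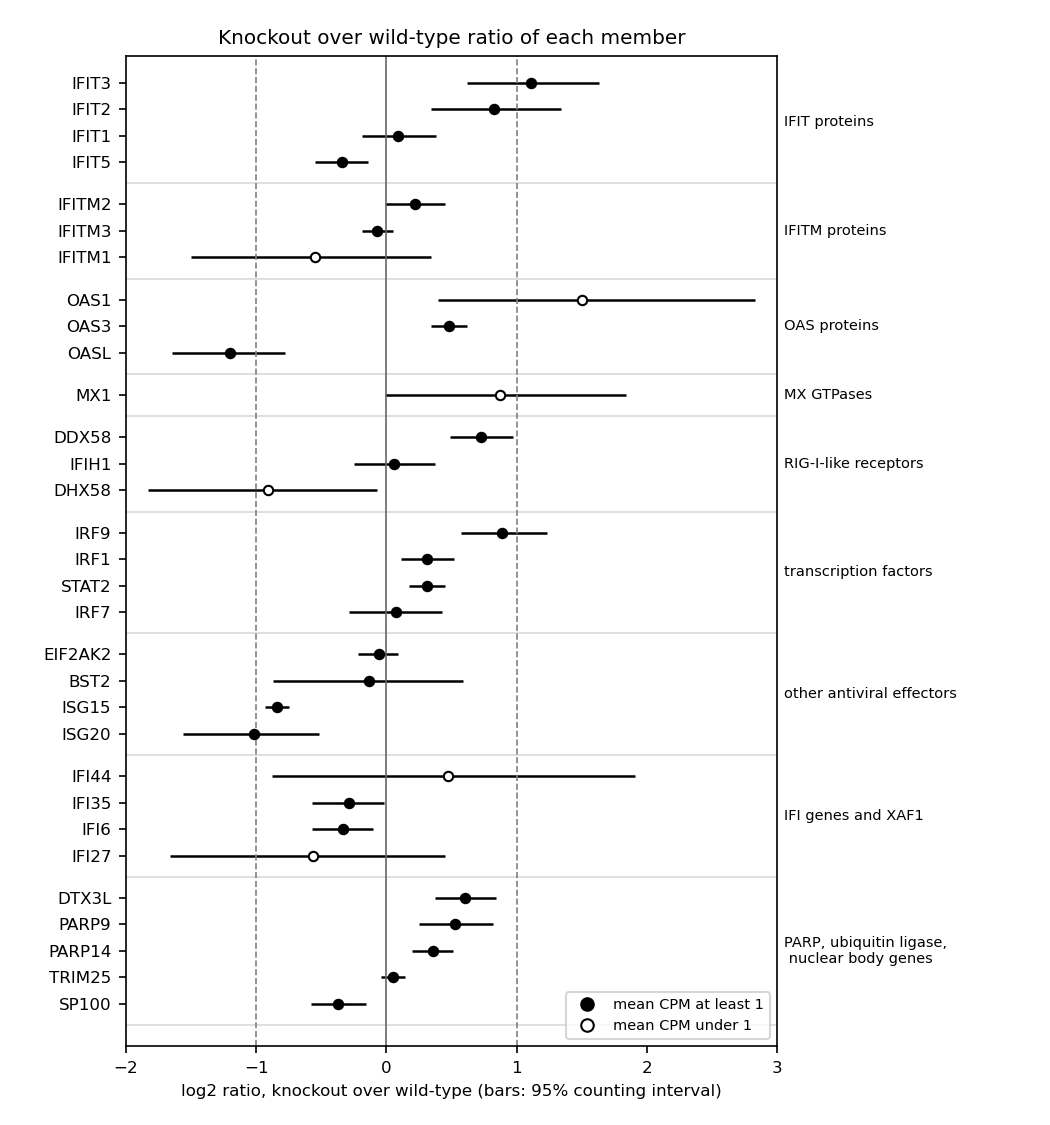
Log2 ratio, knockout over wild-type, of the 31 members with over 3 counts in at least 1 library, grouped by role, with 95% counting intervals. Filled points had a mean CPM of at least 1, and dashed lines mark 2-fold. IFIT3 (1.11) lies past the upper line and OASL (-1.20) and ISG20 (-1.02) past the lower, and the open point past the upper line is OAS1 (2.92-fold).

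Per kilobase of exon, the order of the members was led by ISG15 in both libraries. ISG15 stood at 48.7 CPM per kb in the knockout library and 86.9 CPM per kb in the wild-type library. Its share of the summed level of the 25 expressed members was 31.3% in the knockout library and 45.4% in the wild-type library. IFITM3 was next, at 28.5 CPM per kb in the knockout library and 29.9 CPM per kb in the wild-type library. TRIM25 (10.5 CPM per kb), IFI6 (9.83) and IFITM2 (9.64) came after it in the knockout library, close to each other. The median over expressed members was 2.66 CPM per kb in the knockout library and 2.18 CPM per kb in the wild-type library, under the median of expressed protein-coding genes (4.25 in the knockout and 4.16 in the wild-type library). OASL moved most in the order, ranking 25 in the knockout library and 17 in the wild-type library, while IRF9 ranked 10 in the knockout library and 15 in the wild-type library.

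**Figure D4:**
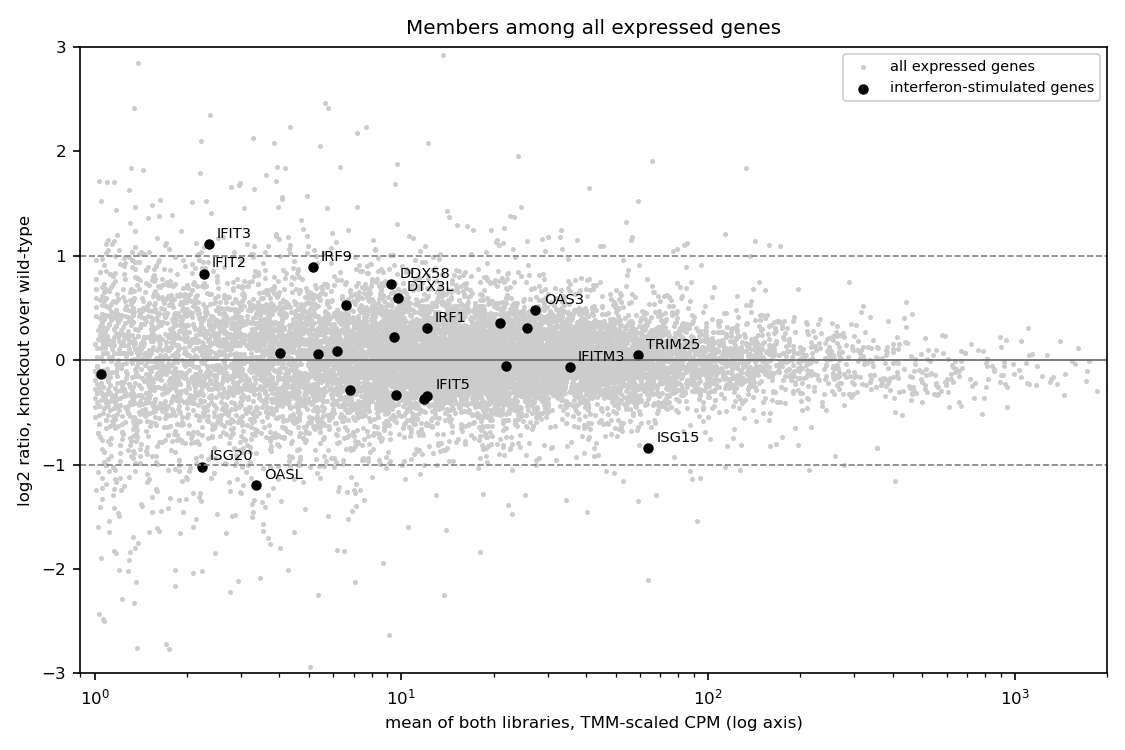
Log2 ratio, knockout over wild-type, against the mean TMM-scaled CPM of both libraries (log axis) for all expressed genes (grey) and the 25 expressed members (black). Dashed lines mark 2-fold, and 30 genes lie outside the plotted range. ISG15 (-0.84) lies below most grey points near its CPM, while IFIT3, OASL and ISG20 lie at low CPM where the grey points spread widely.

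The rest of the pathway was measured in lists of other genes. The interferon genes themselves were near 0, with 10 counts over 8 genes in the knockout library and 8 counts in the wild-type library. All 6 receptor subunits were expressed and none was called. IFNLR1, the specific chain of the type III receptor, had 298 counts in the knockout library and 390 in the wild-type library (log2 ratio -0.31), and its partner IL10RB had 284 counts in the knockout library and 239 in the wild-type library (0.32). The type I receptor chain IFNAR1 had 371 counts in the knockout library and 395 in the wild-type library, a log2 ratio of -0.02.

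Of 9 expressed kinases and factors, none was called, and the median log2 ratio was 0.07. By the interval alone 2 were higher and 1 lower, where 26.4% of all expressed genes were higher and 25.5% lower. IRF3, which switches on interferon beta, had 1333 counts in the knockout library and 1143 in the wild-type library (1.23-fold, interval 1.13 to 1.33). Its interval lies above 1, as does that of the member STAT2, while that of the member IRF7 includes 1.

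In nucleic acid sensing, 5 of 9 expressed genes had an interval above 1 and 1 below, where 26.4% of all expressed genes lay above and 25.5% below. The median log2 ratio of the 9 was 0.24, against 0.01 over all expressed genes, and none was called. Among those with a mean CPM of at least 5, the list median was 0.08. The adaptor MYD88 had 331 counts in the knockout library and 207 in the wild-type library (log2 ratio 0.75), and TLR3, the endosomal receptor for double-stranded RNA, had 61 counts in the knockout library and 41 in the wild-type library (0.64). The DNA sensor genes CGAS and IFI16, named after their values were seen, were at the detection limit, as CGAS had 2 counts in the knockout library and 0 in the wild-type library, and IFI16 had 0 in both. Their adaptor STING (TMEM173) was expressed, with 382 counts in the knockout library and 401 in the wild-type library.

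Among the expressed genes of the pathway lists, a negative regulator had the largest ratio. SOCS1, an inhibitor of JAK kinases that interferon induces, had 136 counts (4.25 CPM) in the knockout library and 45 counts (1.34 CPM) in the wild-type library. It was 3.18-fold higher (log2 ratio 1.66, interval 2.25 to 4.56 in fold), the sole called gene of 9. SOCS3, which mainly restrains STAT3 signalling, went the other way, with 528 counts in the knockout library and 924 in the wild-type library (1.66-fold lower, interval 1.49 to 1.85). USP18, the protease that removes ISG15, had 220.36 expected counts in the knockout library and 280.31 in the wild-type library (log2 ratio -0.27).

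Of 22 expressed genes in a list of other interferon-stimulated genes, 1 was called higher and none lower, and the median log2 ratio was 0.10. PARP10, a mono-ADP-ribosyltransferase, had 94 counts in the knockout library and 45 in the wild-type library (2.2-fold, interval 1.53 to 3.21). NMI, a partner of STAT proteins, had 79 counts in the knockout library and 56 in the wild-type library (log2 ratio 0.57). Over all pathway lists, 2 of 58 expressed genes were called higher and 0 lower, where 1.28% of all expressed genes were called higher and 1.64% lower. By the interval alone 17 were higher and 10 lower, where 26.4% of all expressed genes were higher and 25.5% lower.

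**Figure D5:**
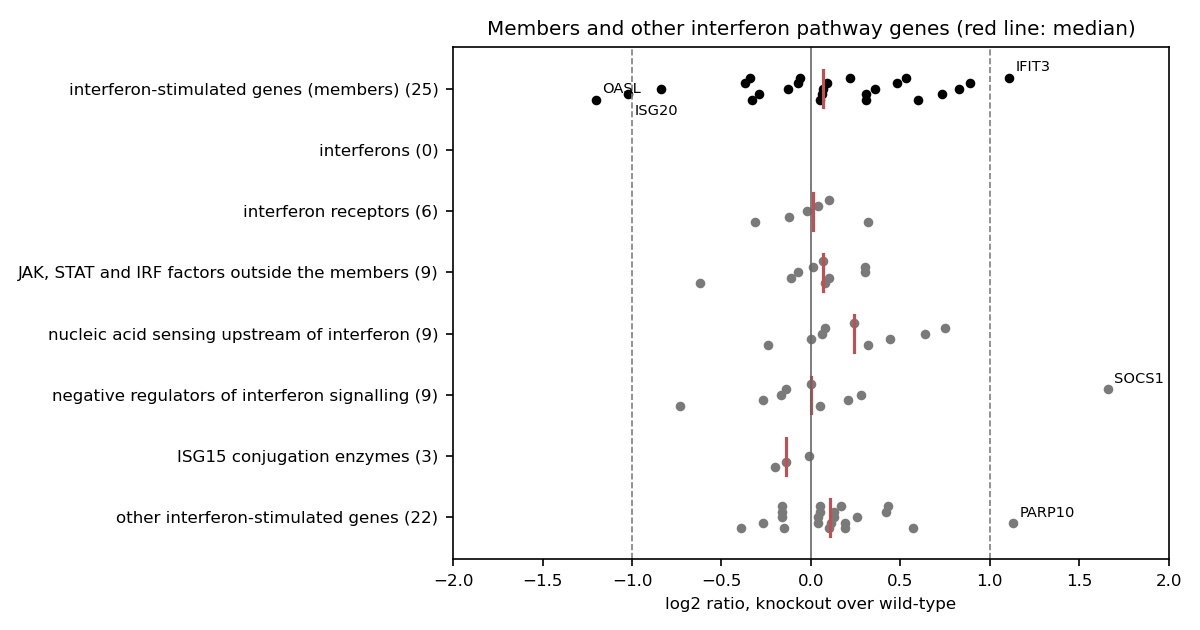
Log2 ratio, knockout over wild-type, of each expressed gene in the set (black) and in the pathway lists (grey), with the number of expressed genes in parentheses and the median as a red line. Named points were called. Members span from OASL (-1.20) to IFIT3 (1.11), and SOCS1 (1.66) is the farthest pathway gene.

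Members with and without the ISRE letters had intervals on both sides of 1. Among the 14 expressed members with the ISRE letters, 5 had intervals above 1 and 4 below, and the median log2 ratio was 0.00. The 7 expressed members whose windows lack them were DDX58, IRF1, IRF9, STAT2, TRIM25, IFI35 and SP100. Their median log2 ratio was 0.31, with 4 intervals above 1 and 2 below, those of IFI35 and SP100. Other forms of the ISRE were not searched, so a window without these letters does not show that a member lacks an ISRE. Over 334 other expressed genes with the ISRE letters the median was 0.02, with 1.8% called higher and 2.4% lower. Over all 9789 expressed genes with a promoter window, 27.3% had an interval above 1 and 25.8% below, and 1.11% were called higher and 1.51% lower.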

How the data were processed

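The submitters' processing notes name RSEM 1.2.26, STAR 2.4.2a, cutadapt 2.0 and build hg19. The authors deposited expected counts (estimated counts per gene, unscaled). The annotation and strand setting used for counting are not stated in these sources. Both value columns were assigned by genotype name. Identifiers were matched, without versions, to GENCODE 29 (52337 of 57820). Those without a match held 35.2% of knockout and 37.0% of wild-type counts and stayed in the totals.

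Counts were rounded and scaled with TMM (edgeR 4.0.16, R 4.3.3). Log2 ratios used a prior count of 0.5. Intervals are exact Clopper-Pearson 95% intervals from the conditional binomial of both counts (scipy 1.17.1). With 1 library per group, no p-value was computed. Intervals and floors cover counting error only, and treat read pairs as independent molecules. The interval and call rule were tried on simulated counts with Poisson error alone, the error that the interval assumes. That check does not cover differences between replicates or clones. Exon lengths are merged exons of the GENCODE 29 basic set. ISRE and CRE letters were searched on both strands of RefSeq windows.

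The members and lists were chosen with earlier results of these data known. All 36 members are named, and of each pathway list the called genes and the 2 largest ratios, apart from genes not reported here. IFNAR1, TMEM173, USP18, CGAS and IFI16 were named after their values were seen.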

Additional observations from a re-analysis of the deposited data

How the results depend on the processing

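Scaling by total counts, DESeq2 1.42.0 size factors, upper quartiles, TMM over protein-coding genes or TMM without the 5 highest genes left the log2 ratio of each of the 31 members that have one inside its counting interval, as did a prior count of 2 (186 values). The median over members ranged from 0.05 to 0.16 over all alternatives. With total-count scaling, which moved the median of all genes by 0.07, 1 member (OASL) rather than 2 was called lower. Under that scaling 1.56% of expressed genes were called higher and 1.3% lower. Then 12 member intervals lay above 1, IFITM2 and TRIM25 added, and 6 below, without IFI35. The shares of all expressed genes with such intervals were not computed under that scaling, which moved ratios upward. At a mean CPM of at least 5, 0 of 19 members were called in either direction and 0 pathway genes were called higher. Of all 10010 genes at that level, 0.749% were called higher and 0.619% lower. Without a filter on low values, 2 members (IFIT3 and OAS1) were called higher and 1 pathway gene lower, GBP2. GBP2 had 1 count in the knockout and 17 in the wild-type library. The same genes were called without genes of at most 3 counts in both libraries (a choice made after seeing the data) and at 10 counts or more. Over all genes, 1.94% were called higher and 2.73% lower without a filter. These shares were 2.53% and 3.57% without genes of at most 3 counts, and 2.46% and 3.35% at 10 counts or more. At 1.5-fold, 5 members were called higher and 3 lower, where 5.25% and 5.5% of expressed genes were. With members of whole-number counts alone, 1 was called higher and 2 lower, where 1.24% and 1.69% of expressed genes with such counts were. No paired analysis was possible because each group has 1 library, and for the same reason no replicate could be left out. At this depth, ratios of members under 1 CPM have wide intervals.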
